A study of Rattus norvegicus with 42 samples.

Results

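The cholesterol genes of the rat retina were followed as a set of 31: the enzymes that make cholesterol, the proteins that switch those enzymes on, and the proteins that move, store, export or hydroxylate cholesterol. They were taken by name, as genes of the pathway, with earlier results of these data known. All 31 were found among the 32623 genes of the count matrix, and all 31 were among the 18094 that passed the filter on low counts. By role, 7 act from acetyl-CoA to farnesyl diphosphate, 11 from squalene to cholesterol, and 5 control transcription of the pathway. Another 3 transport or esterify cholesterol inside the cell. The last 5 are exporters, their nuclear receptor, a hydroxylase and Mylip, which marks lipoprotein receptors for breakdown. Uptake is represented by Npc1 and Mylip alone.

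Retinas of adult rats were compared in 6 groups, for which the labels give no strain, sex or exact age and no interval between light and dissection. Control rats had no treatment (5 libraries) and light damage rats were exposed to 15000 lux for 24 h without injection (7 libraries). Vehicle rats had vehicle injected into the vitreous and no damaging light (5 libraries), and vehicle plus light rats had the same injection and the same light (5 libraries). Nanoceria rats had 1 mM cerium oxide nanoparticles injected there (4 libraries), and nanoceria plus light rats had both (5 libraries). The uninjected groups had no sham injection, so a comparison of an injected group with them holds the injection too.

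Cholesterol hardly crosses the blood-retina barrier by diffusion, so the retina both makes it, with Müller glia as one main site, and takes it up from lipoproteins that reach the pigment epithelium and vessels. When sterol in the endoplasmic reticulum is low, Scap escorts the factors encoded by Srebf1 and Srebf2 to the Golgi, where they are cut and released to the nucleus to raise the enzymes. The Insig proteins hold them back when sterol is high. Surplus cholesterol activates the liver X receptors, which raise the exporters Abca1 and Abcg1, and neurons also remove it through the hydroxylase Cyp46a1.

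The promoters of the enzymes are shown first, as a description of their sequence. Whether the sequence has a part in the levels was not tested. RefSeq (build GRCr8, while the counts were made on rn6) held 27 promoter windows for 26 of the 31 genes and none for Pmvk, Sqle, Fdft1, Stard4 and Abcg1. The 200 bases before the start are printed for 5 enzymes that fell after light both without injection and after vehicle, and for Ebp, which did not. Capitals mark CCAAT, the box bound by the factor NF-Y, or ATTGG, the same box on the other strand.
Hmgcs1 (chr2:53382104-53382303, + strand): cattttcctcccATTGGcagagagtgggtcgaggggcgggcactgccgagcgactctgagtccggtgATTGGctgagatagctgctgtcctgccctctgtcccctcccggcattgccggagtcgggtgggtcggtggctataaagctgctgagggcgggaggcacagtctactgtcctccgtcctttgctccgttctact
Mvd (chr19:67414975-67415174, - strand): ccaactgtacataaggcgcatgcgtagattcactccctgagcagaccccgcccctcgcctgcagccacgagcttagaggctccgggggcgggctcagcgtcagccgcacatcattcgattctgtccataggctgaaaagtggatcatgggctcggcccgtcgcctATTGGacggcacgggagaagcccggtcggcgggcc
Idi1 (chr17:66547525-66547724, - strand): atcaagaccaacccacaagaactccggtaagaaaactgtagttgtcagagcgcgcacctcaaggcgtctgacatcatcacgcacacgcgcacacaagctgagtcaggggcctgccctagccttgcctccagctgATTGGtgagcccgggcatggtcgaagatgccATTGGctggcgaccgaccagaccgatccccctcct
Fdps (chr2:176804817-176805016, - strand): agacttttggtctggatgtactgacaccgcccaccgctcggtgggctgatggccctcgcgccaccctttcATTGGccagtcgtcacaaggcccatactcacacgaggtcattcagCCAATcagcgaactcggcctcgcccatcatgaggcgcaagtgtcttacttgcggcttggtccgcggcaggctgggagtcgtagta
Nsdhl (chrX:155817160-155817359, + strand): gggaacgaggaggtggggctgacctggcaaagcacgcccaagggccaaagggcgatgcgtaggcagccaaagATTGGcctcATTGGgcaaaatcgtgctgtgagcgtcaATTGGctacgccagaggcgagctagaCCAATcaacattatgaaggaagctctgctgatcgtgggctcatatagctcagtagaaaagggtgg
Ebp (chrX:16971262-16971461, + strand): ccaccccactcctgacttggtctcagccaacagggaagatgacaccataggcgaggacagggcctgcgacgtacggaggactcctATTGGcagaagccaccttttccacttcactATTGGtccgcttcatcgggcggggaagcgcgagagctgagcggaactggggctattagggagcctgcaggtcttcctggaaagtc

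In the 250 bases before the start, CCAAT was found on either strand in 20 of the 27 windows (74.1%), against 34.02% of all 33469 RefSeq promoter windows of the same length. Of the 15 synthesis enzymes with a window, 12 held it. Mvk and Nsdhl had 5 matches each, and Acat2, Cyp51 and Dhcr7 had none. The letters TCACNCCAC, searched as 1 form of the sterol regulatory element on both strands, were in 0 of 27 windows and in 0.974% of all. Elements that differ from these exact letters were not searched, so the 0 does not show that the promoters lack one. With so low a share over all windows, it does not set the members apart either. The E-box CACGTG was in 4 of 27, those of Sc5d, Scap, Insig1 and Abca1, and in 5.59% of all. None of the 3 motifs contains another, and a match here is a description of the sequence only. The 33469 windows are all RefSeq promoters, not only those of genes that passed the filter here. Ebp held the box, as did the 5 enzymes printed with it, while Acat2, Cyp51 and Dhcr7 fell after light alone without a match.

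Levels are given as CPM, read counts scaled to a common library size, and differences as log2 fold changes with their standard error (SE). A gene is said to rise or fall where the adjusted p of edgeR's quasi-likelihood test was under 0.05 over all 18094 genes. Levels are not compared between genes, since transcript lengths were not used. Libraries held 25158407 to 182162368 counts, the lowest in light damage 1 and the next lowest, 73369026, in vehicle 3. Vehicle 4 and 7 were far more alike than other libraries (chi-square per degree of freedom 4.55), as were light damage 4 and 7 (10.98), against 74.7 for the next closest pair. Both pairs still differed by more than sampling noise and were kept as separate libraries. The labels do not say whether the libraries of a pair came from separate animals, and if they did not, the vehicle and light damage groups hold fewer independent samples than libraries. Summing each pair to 1 library left 16, 9, 2 and 5 members called in place of 17, 10, 2 and 5 in the 4 comparisons that called any. The transcript of the Y-linked gene Eif2s3y was above 10 CPM in 4 of the 5 control and 4 of the 7 light damage libraries. Among injected rats it was so in 1 of the 5 with vehicle alone, in 2 of the 4 with nanoceria alone, and with light in 2 of 5 and 3 of 5, respectively. A term for it left the counts at 17, 10, 2 and 5.

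**Figure D1:**
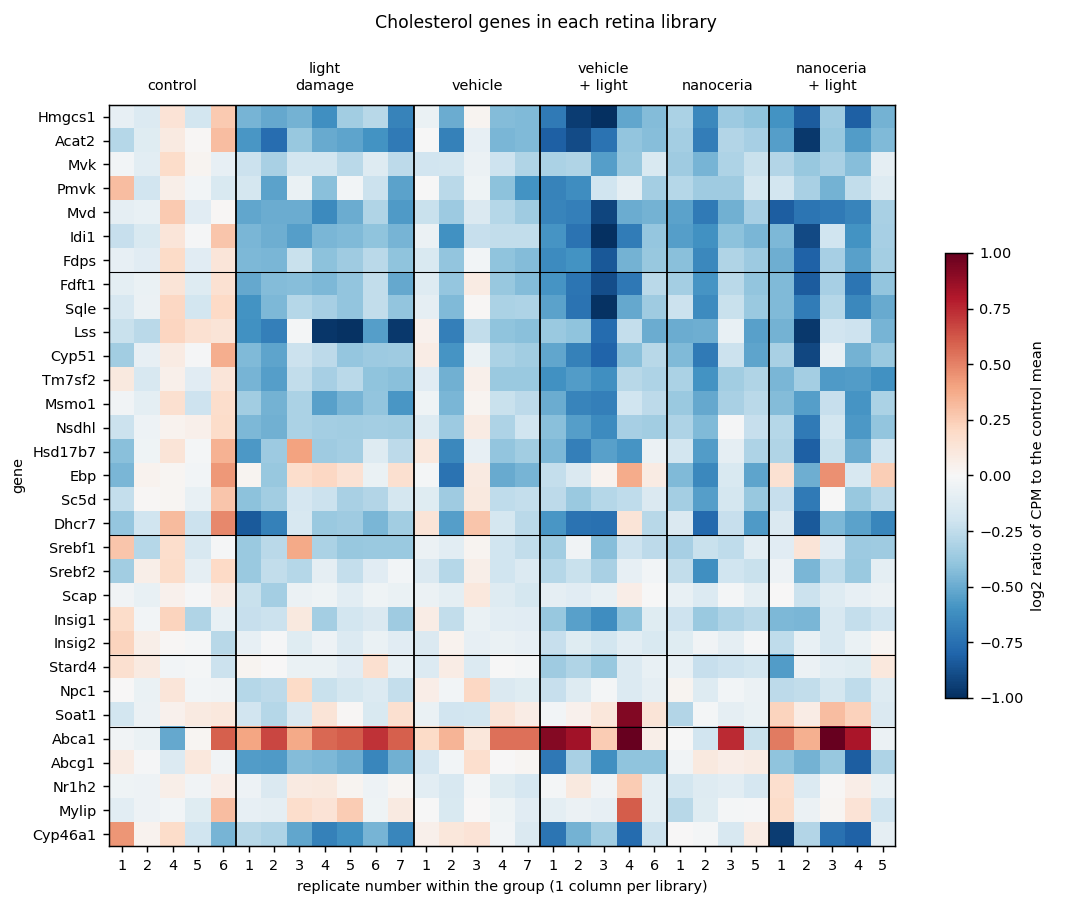
Each row is 1 of the 31 cholesterol genes, ordered by role with lines between roles, and each column is 1 of the 31 libraries. Colour gives the log2 ratio of CPM to the control mean and ends at 1 in either direction. The 18 synthesis enzymes at the top are mostly blue outside the control group, Abca1 is mostly red after light, and Abcg1 and Cyp46a1 are blue in the 3 groups with light.

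The first question was how damaging light alone changed the pathway. Light without injection lowered 17 of the 31 members and raised none, and 15 of these 17 were synthesis enzymes. Over all genes 10.6% fell and 11.9% rose. The median log2 fold change was -0.28 over the 31 members and -0.39 over the 18 synthesis enzymes, against -0.01 over all genes. The other members that fell were the exporter Abcg1 and the hydroxylase Cyp46a1.

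In the steps to farnesyl diphosphate, 6 of 7 enzymes fell. Hmgcs1, which makes the HMG-CoA from which mevalonate is formed, stood at 289, 278, 335, 269 and 367 CPM in the control libraries and from 193 to 252 CPM (median 220) in light damage. Every light damage library was below every control library. The log2 fold change was -0.48 ± 0.11 (SE; edgeR adjusted p = 0.0022). Mvd, the decarboxylase that closes the mevalonate steps, was at 33.4, 33.8, 42.6, 32.9 and 35.8 CPM in control and from 22.9 to 28.8 CPM (median 25.2) in light damage. It too did not overlap between the groups, with a log2 fold change of -0.50 ± 0.09 (edgeR adjusted p = 7.6e-05). Idi1, the isopentenyl diphosphate isomerase, went from 61.9, 65.4, 79.2, 72.4 and 88.0 CPM to between 49.6 and 55.1 CPM (median 52.9). Its light damage libraries were much closer together than its control libraries, and its log2 fold change was -0.48 ± 0.11 (edgeR adjusted p = 0.0016). Fdps, which joins isoprene units to farnesyl diphosphate, changed by -0.37 ± 0.09 and Mvk, the mevalonate kinase, by -0.23 ± 0.07. Acat2, the cytosolic thiolase at the entry, changed by -0.59 ± 0.12, but it has a near copy, Acat2l1, with which reads could be shared, so its value is uncertain. Pmvk, the next kinase after Mvk, was at -0.28 ± 0.12 and did not pass (edgeR adjusted p = 0.085).

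From squalene to cholesterol, 9 of 11 enzymes fell. Sqle, the squalene epoxidase and a control point of the pathway, was at 65.8, 70.4, 84.7, 64.6 and 84.1 CPM in control and from 48.6 to 61.9 CPM (median 56.0) in light damage. The groups did not overlap, and the log2 fold change was -0.39 ± 0.10 (edgeR adjusted p = 0.0058). Lss, which closes the sterol rings, had the most negative value of all members, -0.66 ± 0.16 (edgeR adjusted p = 0.0024). Its control values were 66.3, 64.3, 90.1, 86.1 and 84.9 CPM and its light damage values ran from 39.2 to 76.7 CPM (median 48.2). Light damage 3 alone lay inside the control range. Fdft1, the squalene synthase, changed by -0.43 ± 0.10, Msmo1, a methyl sterol oxidase, by -0.45 ± 0.09, and Nsdhl, a sterol dehydrogenase, by -0.38 ± 0.09. Tm7sf2, a sterol reductase, was at -0.38 ± 0.09. All 4 had light damage libraries wholly below the control libraries.

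The last calls were less firm. Cyp51, the lanosterol demethylase, was at -0.38 ± 0.13, Sc5d, a sterol desaturase, at -0.28 ± 0.09, and Dhcr7, the reductase that yields cholesterol, at -0.48 ± 0.17. Dhcr7 (edgeR adjusted p = 0.045) lost its call in 8 of 12 fits that left out 1 library and in 3 of 8 other alternatives. Control 4 and 6 were high for it, at 45.7 and 51.3 CPM, against 28.1, 32.04 and 31.7 CPM in the other control libraries. Hsd17b7, a ketosteroid reductase, was at -0.22 ± 0.16 and did not pass. Ebp, the sterol isomerase, was at 0.02 ± 0.16, with 28.7 to 29.99 CPM in 3 control libraries, 21.4 and 39.5 CPM in the other two, and 22.6 to 33.8 CPM (median 32.5) in light damage. Ebp was the only enzyme of the 18 without a negative value here. Altogether 11 enzymes and Abcg1 had every light damage library below every control library, as did 4.79% of all genes.

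None of the 5 controllers of the pathway passed the test after light alone. Srebf2, the factor that chiefly drives the cholesterol enzymes, was at 177, 235, 257, 212 and 260 CPM in control and from 175 to 222 CPM (median 192) in light damage, and the groups overlapped. Its log2 fold change was -0.21 ± 0.09 (edgeR adjusted p = 0.12). Srebf1, more tied to fatty acid synthesis, was at -0.23 ± 0.12. Light damage 3 had 261 CPM of Srebf1 while the other light damage libraries had 154 to 166 CPM, and without light damage 3 Srebf1 was called at -0.36. Scap was at -0.12 ± 0.05, Insig1 at -0.20 ± 0.09 and Insig2 at -0.09 ± 0.06.

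The proteins that handle cholesterol split. Abcg1, a sterol exporter, had 166, 156, 143, 169 and 153 CPM in control and 100.1 to 116 CPM (median 112) in light damage, a wide gap. Its log2 fold change of -0.52 ± 0.07 had the smallest adjusted p of the 31 members (edgeR adjusted p = 6.6e-06). Cyp46a1, the cholesterol hydroxylase of neurons, was at 30.8, 23.3, 25.8, 19.7 and 16.5 CPM in control and 14.2 to 18.7 CPM (median 15.8) in light damage. The groups overlapped only through control 6, and the log2 fold change was -0.53 ± 0.14 (edgeR adjusted p = 0.0057). Abca1, the exporter that loads apolipoproteins, stood at 34.9, 34.1, 25.1, 36.1 and 53.9 CPM in control and 46.5 to 58.9 CPM (median 54.1) in light damage. It was higher at 0.53 ± 0.22 but did not pass (edgeR adjusted p = 0.083). Only control 6 reached into the light damage range, and Abca1 was called higher without that library (0.72) or in a fit of these 2 groups alone (0.53). Stard4, a carrier of free cholesterol (-0.02 ± 0.08), Npc1, which releases it from lysosomes (-0.16 ± 0.07), Soat1, which esterifies it (-0.06 ± 0.12), and Mylip, which marks lipoprotein receptors for breakdown (0.06 ± 0.10), did not pass. Nor did Nr1h2, the liver X receptor beta, at 68.7 to 74.6 CPM in control and 64.4 to 76.0 CPM in light damage.

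**Figure D2:**
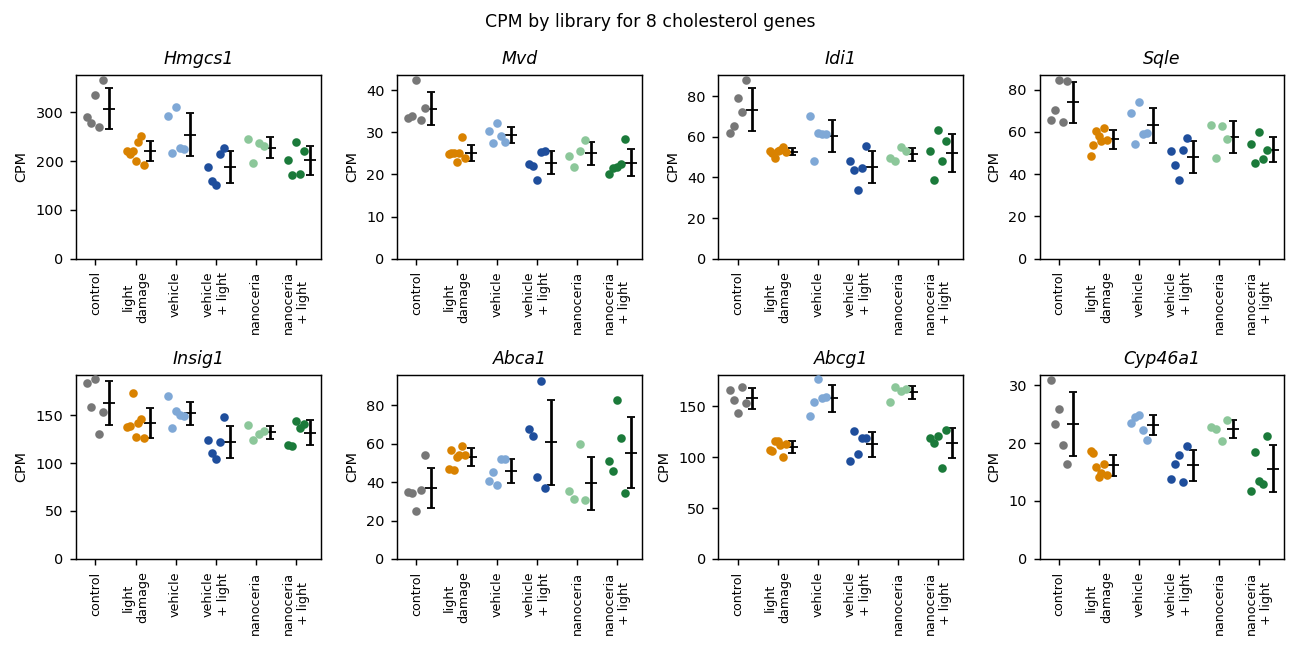
CPM is shown per library for 8 genes, with 1 point per library and the group mean ± SD beside the points, and each vertical axis starts at 0. Hmgcs1, Mvd, Idi1 and Sqle are highest in control, Abcg1 and Cyp46a1 are lower in all 3 groups with light, and Abca1 scatters widely.

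After vehicle, light lowered 10 of the 31 members and raised none, while 7.17% of all genes fell and 9.67% rose. The median was -0.20 over members and 0.02 over all genes. Of the 10, 7 were synthesis enzymes: Hmgcs1 (-0.44 ± 0.12), Mvd (-0.37 ± 0.09), Idi1 (-0.42 ± 0.12), Fdps (-0.30 ± 0.10), Fdft1 (-0.39 ± 0.11), Sqle (-0.39 ± 0.11) and Nsdhl (-0.28 ± 0.10). Hmgcs1 was at 291, 216, 311, 226 and 225 CPM in vehicle and at 188, 158, 152, 214 and 226 CPM in vehicle plus light. Vehicle 1 and 3 stood well above the other vehicle libraries, and only vehicle plus light 6 reached the range of the vehicle libraries. Mvd was at 30.4, 27.6, 32.2, 29.1 and 27.7 CPM in vehicle and 22.5, 22.0, 18.8, 25.2 and 25.6 CPM in vehicle plus light, with no overlap. Insig1, both a target of the Srebf factors and a brake on them, went from 170, 136, 154, 150 and 149 CPM to 124, 111, 105, 122 and 149 CPM. Its log2 fold change was -0.31 ± 0.10 (edgeR adjusted p = 0.026).

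Abcg1 fell again, from 140, 154, 177, 158 and 159 CPM to 96.1, 126, 103, 119 and 119 CPM (-0.49 ± 0.08; edgeR adjusted p = 7.2e-05). Cyp46a1 fell from 23.5, 24.5, 24.9, 22.3 and 20.5 CPM to 13.7, 16.3, 17.9, 13.3 and 19.5 CPM (-0.52 ± 0.15; edgeR adjusted p = 0.016). With Mvd, these were the members whose libraries did not overlap, a pattern of 6.01% of all genes in that direction. Not called here were Acat2 (-0.33 ± 0.13), Cyp51 (-0.29 ± 0.14), Msmo1 (-0.26 ± 0.10) and Tm7sf2 (-0.22 ± 0.09), nor Lss (-0.12 ± 0.17), Mvk (-0.15 ± 0.07), Pmvk (-0.12 ± 0.13), Sc5d (-0.10 ± 0.10), Hsd17b7 (-0.20 ± 0.17), Dhcr7 (-0.31 ± 0.19) or Ebp (0.33 ± 0.17). The count was 5 without vehicle 3, 7 without vehicle 1 or without vehicle plus light 1, 2 or 3, and 8 with these 2 groups alone. With library size alone as the scaling there were 3 lower and 2 higher, Soat1 and Nr1h2. Nsdhl lost its call in 6 of 10 fits that left out 1 library and in 3 of 8 other alternatives, and Fdps in 5 of 10 and 2 of 8. Soat1 was at 0.33 ± 0.13, with 57.3 CPM in vehicle plus light 4 and 29.6 to 32.9 CPM in the other libraries of that group. Abca1 was at 0.41 and was not called, with 38.5 to 52.3 CPM in vehicle and 37.2 to 92.6 CPM in vehicle plus light.

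After nanoceria, light lowered 2 of the 31 members, Abcg1 and Cyp46a1, and raised none. Over all genes 5.78% fell and 8.15% rose, so the count of members that fell was near the share of all genes. Abcg1 went from 154, 169, 165 and 167 CPM to 119, 113, 121, 88.9 and 127 CPM (-0.52 ± 0.08; edgeR adjusted p = 7.3e-05) with no overlap. Cyp46a1 went from 22.8, 22.4, 20.3 and 24.0 CPM to 11.8, 18.5, 13.5, 13.0 and 21.3 CPM (-0.52 ± 0.16; edgeR adjusted p = 0.025). Only nanoceria plus light 5 reached the nanoceria range, and the Cyp46a1 call was lost, leaving Abcg1 alone, without nanoceria 1, 2 or 5 or without nanoceria plus light 1, 3 or 4. The synthesis enzymes had a median of -0.08 and none passed. Hmgcs1 was at 245, 196, 238 and 231 CPM in nanoceria and 201, 172, 239, 174 and 220 CPM in nanoceria plus light (-0.18 ± 0.13). Ebp had a positive value, 0.51 ± 0.19 (edgeR adjusted p = 0.066), from 21.6, 18.7, 26.3 and 20.3 CPM to 32.6, 20.9, 40.3, 26.3 and 34.8 CPM. It was called higher with library size alone, with the replicate block, without nanoceria 3 and without nanoceria plus light 2. Without nanoceria 3 Abca1 was also called higher (0.77), and without nanoceria plus light 2 so was Nr1h2 (0.19). Npc1, at 76.6, 69.0, 73.7 and 72.5 CPM and then 62.8, 63.5, 66.7, 63.2 and 68.7 CPM, did not overlap but did not pass (-0.17 ± 0.08). The same ordering held for 5.54% of all genes. The member median was -0.04 with TMM and 0.01 with library size alone.

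**Figure D3:**
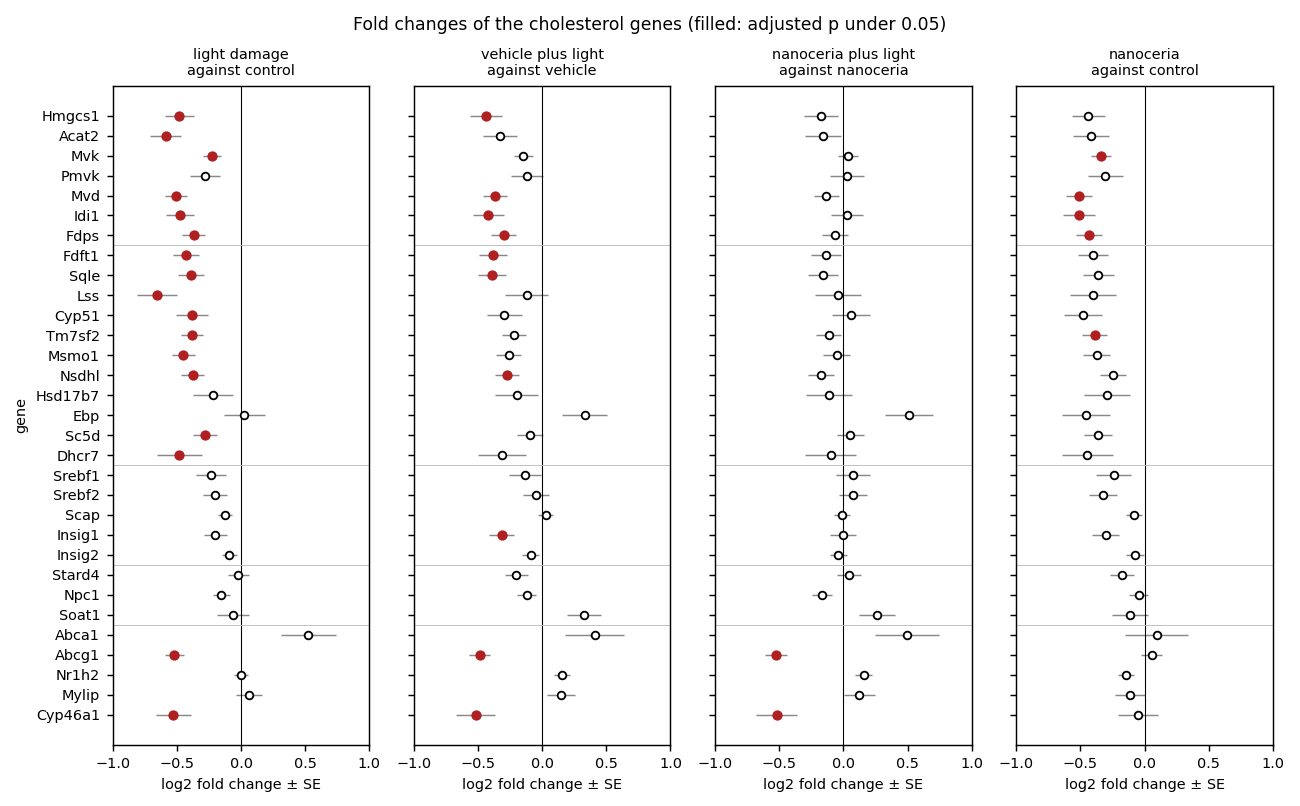
Log2 fold change ± SE of each of the 31 genes is plotted in 4 comparisons, with filled points at an adjusted p under 0.05 and open points otherwise. The filled points number 17, 10, 2 and 5 from left to right and all lie below 0.

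Whether the light response differed by injection was tested directly. No member passed in the light response after vehicle against that without injection (0.0442% of all genes did), and 2 had an unadjusted p under 0.05, as had 5.85% of all genes. These were Lss, at 0.54 ± 0.23, and Soat1, at 0.39 ± 0.18. No member passed in the light response after nanoceria against that after vehicle either (0% of all genes did), with Idi1 at 0.44 ± 0.17 and Insig1 at 0.31 ± 0.14 as the 2 with an unadjusted p under 0.05 (2.29% of all genes). The 18 synthesis enzymes had a median of 0.12 in the first and 0.20 in the second. DESeq2 also called 0 members in both. The 17, 10 and 2 calls are thus counts from separate tests, and a difference between the responses was not shown.

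The injections were then compared without damaging light. Control rats had no injection, so nanoceria against control holds the injection as well as the particles. In it 5 members fell and none rose, where 0.73% of all genes fell and 1.73% rose. They were Mvd (-0.51 ± 0.10, edgeR adjusted p = 0.0055), Idi1 (-0.51 ± 0.13, edgeR adjusted p = 0.023), Fdps (-0.43 ± 0.10, edgeR adjusted p = 0.021), Mvk (-0.34 ± 0.08, edgeR adjusted p = 0.018) and Tm7sf2 (-0.39 ± 0.10, edgeR adjusted p = 0.031). Mvd was at 24.5, 21.8, 25.5 and 28.3 CPM in nanoceria, all below the lowest control value of 32.9 CPM. Idi1 was at 49.7, 47.9, 54.8 and 53.1 CPM, below the lowest control value of 61.9 CPM. All 18 synthesis enzymes had negative values (median -0.40; all genes -0.04), and 10 of them, with Nr1h2, had every nanoceria library below every control library, as did 3.02% of all genes. Abcg1 (0.05 ± 0.09), Cyp46a1 (-0.05 ± 0.16) and Abca1 (0.09 ± 0.24) did not pass. The count was 1 without control 4, without nanoceria 1, without nanoceria 2 or with these 2 groups alone, 2 without control 6, and 9 by DESeq2. Mvd was the member called in all of them. This comparison and that of light damage use the same control libraries, so their values are not independent.

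Vehicle against control gave 0 members called by edgeR, with 0.0221% of all genes called. The 18 synthesis enzymes were all negative (median -0.25), 10 of them with an unadjusted p under 0.05 (8.08% of all genes), and DESeq2 called 0. That number of members depended on single libraries. It was 3 without vehicle 2, 4 without control 4, 16 without control 1, and 5 with the alike pairs summed. These values rest on the same control libraries as those of light damage and of nanoceria, so they are not an independent repeat. Mvd was the only member with vehicle libraries wholly below control (-0.28 ± 0.09; edgeR adjusted p = 0.44), and 0.442% of all genes had that order. Of the 31 members 30 had negative values. Abca1 was the exception, at 0.31, with a mean of 45.8 CPM in vehicle and 36.8 CPM in control. Nanoceria against vehicle also gave 0 (0% of all genes), with 1 member, Mvd at -0.23 ± 0.10, at an unadjusted p under 0.05 (5.64% of all genes). DESeq2 called 0 there, and the synthesis enzymes had a median of -0.15.

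Under light, the injected groups were compared with uninjected light damage and with each other. Vehicle plus light against light damage called 0 members (0.122% of all genes), with 5 at an unadjusted p under 0.05 where 8.19% of all genes had one: Fdps (-0.21 ± 0.09), Sqle (-0.23 ± 0.10), Insig1 (-0.21 ± 0.09), Stard4 (-0.23 ± 0.08) and Soat1 (0.34 ± 0.12). Nanoceria plus light against light damage called 0 (0.0608% of all genes), and none had an unadjusted p under 0.05. Nanoceria plus light against vehicle plus light also called 0, with none at an unadjusted p under 0.05 and 0% of all genes called. DESeq2 called 0 members in these 3 comparisons. The 95% interval of that last difference was -0.19 to 0.19 for Mvd, -0.15 to 0.35 for Hmgcs1, -0.03 to 0.45 for Idi1, -0.15 to 0.18 for Abcg1 and -0.61 to 0.34 for Abca1.

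**Figure D4:**
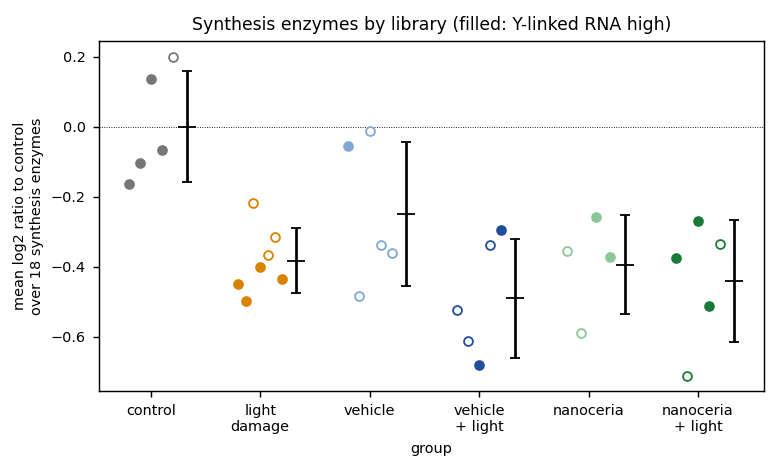
Each point is 1 library, at its mean log2 ratio to control over the 18 synthesis enzymes, and the bar beside each group is the mean ± SD. Filled points have Eif2s3y above 10 CPM. Light damage libraries lie from -0.50 to -0.22, and vehicle 1 and 3 lie at -0.05 and -0.01, inside the control range of -0.16 to 0.20.

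The synthesis enzymes were also averaged per library. Over the 18 enzymes, as log2 ratios to the control mean, the control libraries ran from -0.16 to 0.20, with control 4 and 6 highest. Light damage averaged -0.38 ± 0.09 (SD, n = 7), vehicle -0.25 ± 0.21 (n = 5), vehicle plus light -0.49 ± 0.17 (n = 5), nanoceria -0.39 ± 0.14 (n = 4) and nanoceria plus light -0.44 ± 0.17 (n = 5). The number of the 18 enzymes below the control mean was 0 to 16 in the control libraries, 9 to 18 in vehicle, at least 16 in light damage and 18 in each nanoceria library. Control 1 and 2 had 16 each, so this number overlapped between control and light damage. Over all tested genes the library means stayed between -0.10 and 0.10. Of the 31 members, 25 had their highest group mean in control, among them 17 of the 18 enzymes. Ebp was the exception, highest in nanoceria plus light.

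Other genes of the pathway were read from a list of 60, of which 57 were tested. After light alone 7 rose and 13 fell, after light with vehicle 7 rose and 7 fell, and after light with nanoceria 4 rose and 6 fell. Over all genes the shares that rose and fell were 11.9% and 10.6%, 9.67% and 7.17%, and 8.15% and 5.78%. The numbers that rose in each of the 3 light responses are therefore near the share of all genes. Their medians were -0.07, 0.04 and -0.01. Ch25h, which makes an oxysterol able to block the processing of the Srebf factors, was at 1.11 to 2.10 CPM in control and 6.39 to 10.9 CPM in light damage. It rose by 2.46 ± 0.22, by 2.00 ± 0.22 after vehicle and by 1.39 ± 0.23 after nanoceria (edgeR adjusted p = 2.7e-09, 1.7e-07 and 1.1e-04). Acss2, which makes acetyl-CoA from acetate, rose in all 3, by 0.64 ± 0.08, 0.71 ± 0.09 and 0.68 ± 0.10, with no overlap between groups. Acaca, the carboxylase that opens fatty acid synthesis, fell in all 3, by 0.61 ± 0.11, 0.78 ± 0.12 and 0.82 ± 0.13. Cav1, the coat protein of caveolae, fell after light alone from 188 to 238 CPM to 94.5 to 149 CPM, with a log2 fold change of -0.78 ± 0.11. In nanoceria against control 1 of the 57 passed, Fasn, the fatty acid synthase (-0.50 ± 0.13; edgeR adjusted p = 0.036), named after its value was seen, and in vehicle against control 0 passed by edgeR, with 6 at an unadjusted p under 0.05.

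Transcripts that mark cell types also moved with these groups. In bulk RNA, fewer cells of a type and less RNA per cell cannot be told apart. Over all genes 11.9% rose and 10.6% fell after light alone, 9.67% and 7.17% with vehicle, and 8.15% and 5.78% with nanoceria. In lists this short, 1 marker called after light is near those shares. In nanoceria against control 1.73% of all genes rose and 0.73% fell. The 10 rod markers, led by Gnat1 and Sag, held 1.29 to 2.40% of counts in control and 0.450 to 0.811% in light damage, and 9 of 10 fell. After light 8 of 10 fell with vehicle (from 1.67 to 2.09% to 0.423 to 0.901%) and 8 of 10 with nanoceria (from 1.53 to 2.35% to 0.214 to 0.964%). The 8 Müller glia markers, led by Glul and Dkk3, held 0.483 to 0.681% in control and 0.317 to 0.490% in light damage, and 4 of 8 fell. In vehicle they held 0.494 to 0.601% and in nanoceria 0.488 to 0.554%, and with light 0.407 to 0.476% and 0.372 to 0.577%. After light 1 fell and 1 rose with vehicle, as with nanoceria. Of these 8, 0 were called by edgeR in vehicle or nanoceria against control, with 0 and 1 at an unadjusted p under 0.05. Pigment epithelium markers, led by Ttr and Pmel, went from 0.206 to 0.343% in control to 0.175 to 0.269% in light damage, and 4 of 6 fell, against 1 after light with vehicle and 2 with nanoceria. The 8 microglia markers, led by Csf1r and C1qa, held 0.0128 to 0.0168% in control and 0.0223 to 0.0350% in nanoceria, and 7 of 8 rose there. After light 3 of these 8 fell with nanoceria, 1 rose with vehicle, and 2 rose and 2 fell without injection. Lens markers, led by Cryaa and Crybb2, ranged from 0.0646 to 0.771% in control and from 0.473 to 2.86% in vehicle. In vehicle against control all 11 had an unadjusted p of edgeR under 0.05 (8.08% of all genes), and 0 were called. Their median log2 fold change there was 2.37. In vehicle plus light they ranged from 0.278 to 0.602%, and 3 of the 11 fell against vehicle. After light alone and after light with nanoceria 0 were called. After light alone, 1 of 6 cone markers rose and 1 fell (led by Gnat2 and Pde6c), 2 of 5 endothelial markers rose and 1 fell (led by Kdr and Flt1), and 1 of 4 blood markers rose (led by Hbb and Alas2). With vehicle 4 of the 6 cone markers fell and 1 rose after light, and with nanoceria 2 fell and 0 rose. Of the endothelial markers 2 rose and 1 fell with vehicle, and 1 rose and 1 fell with nanoceria. Of the blood markers 1 rose with vehicle and 0 with nanoceria. The part of these lists in the changes of the cholesterol genes was not tested.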

How the data were processed

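PolyA RNA of retinas was sequenced as paired reads of 150 bp, per the labels. The authors deposited raw counts per gene, without scaling. By the submitters' processing notes, Trimmomatic 0.39, STAR 2.7.9a, featureCounts of Subread 2.0.1, DESeq2 1.30.1 and R 4.0 were used with build rn6. Strandedness, annotation release and the rule for multi-mapping reads are not given here, so reads of overlapping or near-identical genes could be shared. The 31 libraries with a matching column were used, and the other 11 of 42 labelled samples were not analysed here. The labels call them biological replicates and name no animals, litters or batches, so p-values measure the spread between these libraries.

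Counts were fitted with edgeR 4.0.16 in R 4.3.3 (robust quasi-likelihood fit, TMM scaling, filterByExpr with a minimum count of 10 and total of 15, 1 coefficient per group, all 31 libraries in 1 fit). Adjustment over the 18094 genes followed Benjamini and Hochberg. There were 9 pairwise comparisons and 2 interactions. CPM came from edgeR's cpm function on the tested genes with TMM scaling, and log2 CPM had a prior count of 2. The fitting steps were also run on simulated counts with the same spread for every gene and independent libraries, a simpler setting than these data. Total counts per library were highest in vehicle plus light 2 and lowest in light damage 1.

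The members, the other pathway genes and the marker lists were chosen with earlier results of these data known. Every member is named. Of the other pathway genes the 3 with the smallest adjusted p per light response are named, and of each marker list the 2 with the highest mean CPM, except 1 list that is not reported here. As alternatives, each library was left out in turn, the alike pairs were summed, a term for Y-linked transcripts or a block for the replicate number was added, the filter was dropped, libraries were scaled by DESeq2 1.42.0 size factors or by size alone, and the 2 groups alone or DESeq2's Wald test were used.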

Additional observations from a re-analysis of the deposited data

Results flagged for a closer look

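In 14 of the 186 sets of values (31 genes in 6 groups), 1 library lay far from the rest of its group by Dixon's criterion. Chance flags about 1 in 20 groups. These 14 values involve 12 genes, and no cause was tested.

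Light damage 3 was high for 5 genes. It had 76.7 CPM of Lss (others 39.2 to 53.1), 18.8 CPM of Hsd17b7 (others 9.54 to 13.0), 261 CPM of Srebf1 (others 154 to 166), 173 CPM of Insig1 (others 126 to 146) and 85.7 CPM of Npc1 (others 61.9 to 68.3). Light damage 6 was high for 2 enzymes, with 28.8 CPM of Mvd (others 22.9 to 25.2) and 125 CPM of Fdft1 (others 104 to 112).

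Nanoceria 2 was low for Acat2, at 14.1 CPM (others 18.002 to 18.6), and for Srebf2, at 148 CPM (others 191 to 197). Nanoceria 3 was high for Lss, at 73.8 CPM (others 53.3 to 55.2), and for Abca1, at 60.0 CPM (others 30.5 to 35.5). Vehicle plus light 4 was high for Soat1, at 57.3 CPM (others 29.6 to 32.9), and for Mylip, at 122 CPM (others 74.7 to 76.9). Control 6 was high for Mylip, at 99.0 CPM (others 73.5 to 78.6).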

How the results depend on the processing

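The 34 calls of single members were recomputed under 17 to 20 alternatives each, 639 values in all. None reversed its direction, 16 kept their call throughout and 18 lost it at least once. Leaving out 1 library gave 13 to 20 members called in light damage against control, 5 to 12 in vehicle plus light against vehicle, 1 to 4 in nanoceria plus light against nanoceria, and 1 to 7 in nanoceria against control. Library size alone gave 5 in vehicle plus light against vehicle and 2 in nanoceria against control, and it moved the median of all genes in the former to 0.12. Only the groups compared gave 1 in nanoceria plus light against nanoceria and 1 in nanoceria against control, and the Wald test of DESeq2 gave 9 in the latter. The 7 comparisons with 0 members called had 0 under every alternative run. The cause of these shifts was not tested.

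With the replicate number as a block, 18, 13, 2 and 3 members were called in these 4 comparisons, in the order above (the 13 were 12 lower and 1 higher, the 2 were 1 lower and 1 higher). Over all genes, same-numbered libraries did not deviate together in every pair. Correlations ran from -0.03 to 0.25 in light damage against control and 0.05 to 0.15 in nanoceria against control. They ran from -0.09 to 0.33 in vehicle plus light against vehicle and -0.03 to 0.38 in nanoceria plus light against nanoceria. Over the synthesis enzymes, replicate 2 was lowest in light damage (-0.50), vehicle (-0.48), nanoceria (-0.59) and nanoceria plus light (-0.71). Replicate 3 was highest in those groups but lowest in vehicle plus light (-0.68). In the column names, a running number after the letter S keeps libraries of the same replicate number together, and its meaning is not given. The labels do not say whether the replicate numbers pair samples, and the main fit did not pair them.

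Of all genes called, the share that fell was 47.3% in light damage against control with TMM and 31.7% with library size alone. It was 42.6% and 22.0% in vehicle plus light against vehicle, 41.5% and 31.2% in nanoceria plus light against nanoceria (53.9% with the size factors of DESeq2), and 29.7% and 9.07% in nanoceria against control. With 4 to 7 libraries per group, and 25158407 counts in the shallowest, the spread between libraries limits the calls.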
